A study of Rattus norvegicus with 20 samples.

Results

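Liver transcripts of rats in the middle dose group of a PBDE-47 study, 15 mg/kg per day, were compared with those of the vehicle group. PBDE-47 is a brominated diphenyl ether once common in flame-retardant mixtures. The 10 arrays titled as 15 mg/kg (5) or vehicle control (5) were taken from the 20 of the study, and all 31042 probe sets other than the array's 57 hybridisation controls were examined out of 31099. Arrays at 0.1 mg/kg (5) and 50 mg/kg (5) entered the estimate of the spread and are given beside the middle dose where they show where it lies.

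Wistar Han rats (Crl:WI (Han)) were bought as mated females of 11 to 12 weeks on gestation day 2. Dams were gavaged once a day with 5 mL/kg of corn oil, from gestation day 6 up to postnatal day 4, and the labels give the sex of every sample as female. The oil held 3 mg/mL of PBDE-47 for the 15 mg/kg group and 0 mg/mL for the vehicle group, and 0.02 or 10 mg/mL for the 0.1 and 50 mg/kg groups. RNA came from frozen left lateral liver lobe at postnatal day 4 and was amplified with a 3' kit for Affymetrix Rat230_2 arrays. The labels do not say whether a liver was that of a dam or of a pup, and name neither litter nor animal, so the p-values measure the spread between these arrays, which may be technical. Albumin (Alb), the main liver plasma protein, was between 14.73 and 14.82 log2 units on all 10 arrays, and alpha-fetoprotein (Afp), the albumin of fetal and newborn liver, was between 14.21 and 14.34.

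The liver clears foreign chemicals in steps. Cytochrome P450 enzymes, which need heme and electrons from P450 reductase, oxidize the compound. Epoxide hydrolase, glucuronosyltransferases and glutathione transferases then hydrolyse or conjugate the product, and efflux pumps export it. Supply of these proteins is set by ligand-activated receptors. The constitutive androstane receptor CAR (Nr1i3) is best known for Cyp2b genes, the pregnane X receptor PXR (Nr1i2) for Cyp3a genes, and the aryl hydrocarbon receptor (Ahr) for Cyp1a genes, with wide overlap between the first and the second of these.

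Values throughout are log2 expression units from robust multi-array averaging (RMA), so a difference of 1 unit is a 2-fold change. A probe set was called where its difference had a Benjamini-Hochberg adjusted p under 0.05 in limma's test over all 31042. Array medians were 5.605 to 5.648. Several arrays stood apart in transcripts of neighbouring tissues. Summed as a list mean, 17 measured skeletal muscle genes were at 8.42 in vehicle replicate 2 and 8.71 in replicate 3 at 15 mg/kg, against 4.43 to 5.31 on the other 8 of the 10 arrays. The 14 measured genes of the exocrine pancreas averaged 7.19 in replicate 3 and 7.23 in replicate 5 at 15 mg/kg, against 4.35 to 4.48 on the other 8. In the comparison with vehicle all 14 pancreas genes had a positive difference, with a median of 1.21, and the largest was that of the lipase-related gene Pnliprp1 (2.32, SE 1.09), while none was called (limma adjusted p = 0.118 for the smallest, that of Pnlip). Of the muscle genes 12 of 17 were positive (median 0.17) and none was called.

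**Figure D1:**
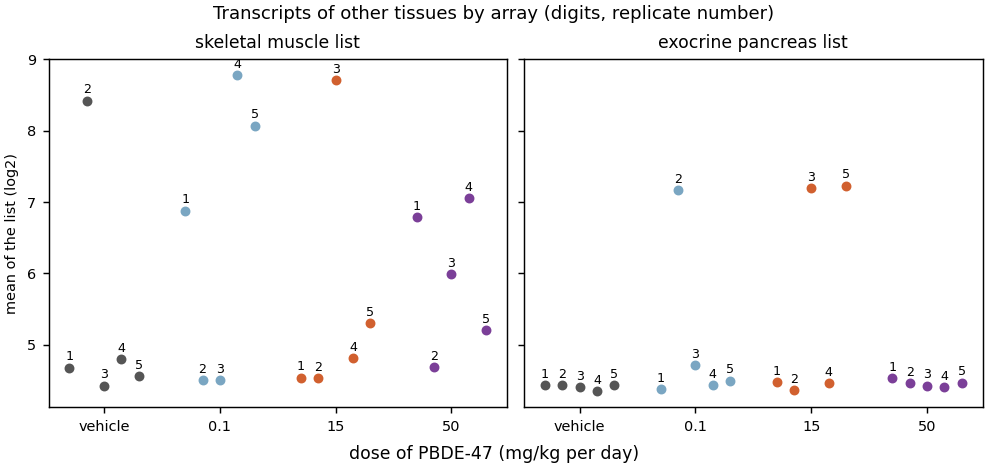
Mean log2 expression of the skeletal muscle list (left) and the exocrine pancreas list (right) on each of the 20 arrays, by dose; digits are replicate numbers. Among the 10 arrays of the comparison, vehicle replicate 2 and 15 mg/kg replicate 3 are high for muscle (8.42 and 8.71), and 15 mg/kg replicates 3 and 5 are high for pancreas (7.19 and 7.23).

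At 15 mg/kg the largest called rises were RNAs of drug-oxidizing P450 enzymes, though most measured members of the P450 and conjugating enzyme families were not called. Cyp2c7 was 5.73-fold higher than in vehicle, Cyp1a1 5.66-fold and Cyp2a3 5.33-fold (n = 5 per group). The fold of Cyp2c7 starts from a low vehicle mean of 4.74, below every array median, where RMA compresses differences. The order of these 3 was not tested. In total 36 of 31042 probe sets were called, a share of 0.116%. Of these 29 were higher (0.0934% of those tested) and 7 lower (0.0226%). Single gene symbols cover 26 of the called probe sets and 25 genes, 21 of them higher, while 2 probe sets carry several symbols and 8 have no gene name here. Of the 29 rises 11 were at least 2-fold, and of the 7 falls 1 was. In bulk tissue, fewer cells of a type and less RNA per cell cannot be told apart.

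**Figure D2:**
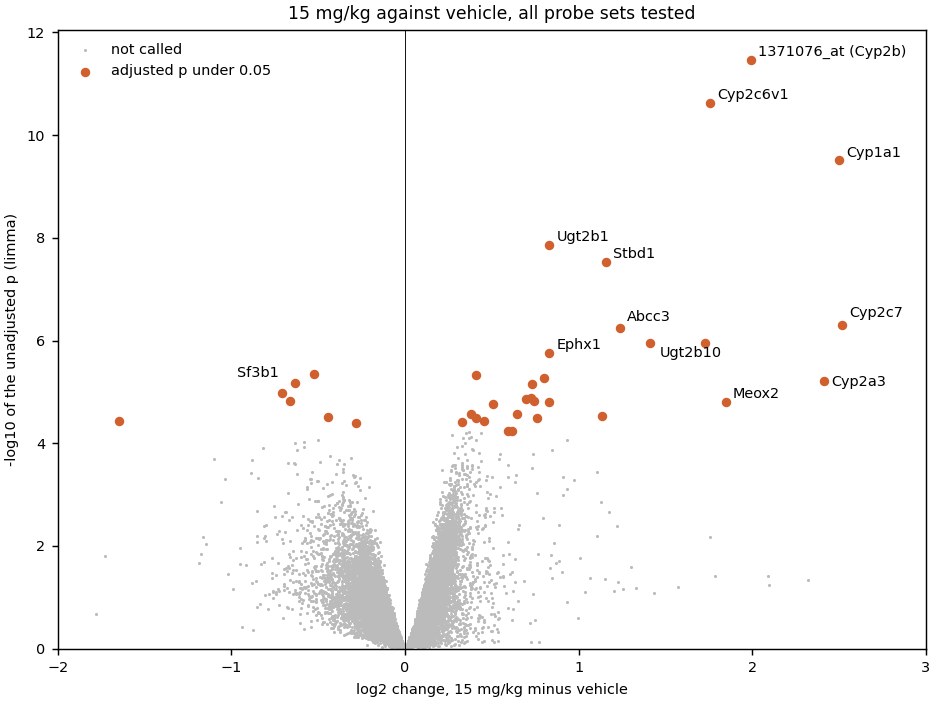
Difference between 15 mg/kg and vehicle (log2, horizontal axis) against -log10 of the unadjusted limma p (vertical axis) for the 31042 probe sets; orange points are the 36 called. The 29 called rises reach 2.52 (Cyp2c7), and the 7 called falls lie between -1.65 and -0.28.

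Across all probe sets the median difference was 0.01 and 54.1% were positive. A median size of 0.091 stood beside a median SE of 0.0948, so the typical probe set moved by no more than its own error. At an unadjusted p under 0.05 there were 3769 of the 31042, of which 2359 were higher. That share is the background for the list counts at the same threshold given below. Every one of the 36 called had 5 arrays at 15 mg/kg on the same side of all 5 vehicle arrays, as had 721 (2.32%) of all probe sets, 487 of them above the controls (1.57%) and 234 below (0.754%). A further 31 probe sets differed at least 2-fold and were not called.

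The count moved with the arrays. With the arrays high in muscle or pancreas genes left out, 4 vehicle and 3 middle-dose arrays were left and 7 probe sets were called, 5 higher and 2 lower. Leaving out only replicates 3 and 5 at 15 mg/kg, an alternative chosen after seeing the data, gave 10, all of them higher. With 1 array left out at a time the count ran from 14 (without replicate 5 at 15 mg/kg) to 44 (without vehicle replicate 2), and was 16 without replicate 4 at 15 mg/kg and 20, 22 and 23 without vehicle replicates 3, 4 and 5. Sizes moved far less than calls. Of 32 called probe sets followed through these fits, 0 changed sign, 12 were called with any 1 array left out, and 4 were called under every alternative tried, namely 1371076_at, Cyp2c6v1, Cyp1a1 and Ugt2b1.

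Among the oxidizing enzymes, the smallest p belonged to probe set 1371076_at, which the annotation assigns to Cyp2b2 and Cyp2b1 together, the classical phenobarbital-inducible P450s of rat liver. It read 11.39, 11.92, 11.92, 11.99 and 12.20 in vehicle replicates 1 to 5 and 13.87, 13.87, 13.86, 13.90 and 13.89 in the middle-dose replicates. The groups were 1.67 apart at their nearest arrays, and the dosed arrays varied little, with an SD of 0.02 against 0.30 in controls. The difference was 1.99 (SE 0.13, limma adjusted p = 1.06e-07), or 3.98-fold. RMA compresses bright signals, and the table's highest value was 14.82, so this fold may be understated. At 50 mg/kg the mean was 14.02.

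Cyp2c6v1, an abundant drug-metabolizing P450, had values of 11.54, 12.09, 11.71, 12.28 and 12.08 on the vehicle arrays and 13.70, 13.56, 13.63, 13.79 and 13.80 at 15 mg/kg. All 5 dosed arrays lay above every control, and the mean rose by 1.75 (SE 0.13, adjusted p = 3.64e-07). Its neighbour in the RefSeq gene order on chromosome 1, with 0 protein-coding genes between them, is Cyp2c7, a P450 that oxidizes retinoic acid. Cyp2c7 read 4.46, 4.52, 4.17, 5.70 and 4.84 in the vehicle group and 6.92, 7.30, 7.34, 7.15 and 7.57 in the middle-dose group. The difference of 2.52 (SE 0.34, adjusted p = 0.00252) was the largest of any called probe set, and was 2.39 (adjusted p = 0.052) without replicates 3 and 5 at 15 mg/kg. Cyp2c11, the main P450 of the adult male rat liver, rose from 4.36 to 4.61 on the vehicle arrays to 4.95 to 5.41 at 15 mg/kg (difference 0.73, SE 0.13, adjusted p = 0.0212). These values are low on the table's range of 2.14 to 14.82, and the call depended on vehicle replicates 3, 4 and 5 and middle-dose replicates 4 and 5, each of which ended it when left out (0.68 to 0.72, adjusted p up to 0.0827). Members of the Cyp2c family are similar in sequence, and whether probes of one picked up another was not tested.

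Cyp1a1, the P450 by which aryl hydrocarbon receptor activity is usually read, was at 7.94, 7.52, 7.80, 7.88 and 7.21 in the vehicle group. At 15 mg/kg it was at 9.97, 10.89, 9.61, 9.92 and 10.45, and the lowest dosed array exceeded the highest control by 1.67. The rise was 2.50 (SE 0.22, 95% interval 2.05 to 2.95, adjusted p = 3.18e-06). Its relative Cyp1a2 gave 7.01, 7.89, 7.57, 7.73 and 9.09 against 8.72, 9.49, 8.75, 9.44 and 8.77. Here vehicle replicate 5 lay inside the dosed range, and the difference of 1.18 (SE 0.33) was not called (adjusted p = 0.196). The receptor gene Ahr itself was at 5.62, 6.43, 5.74, 6.58 and 6.37 in controls and 6.63, 7.03, 6.61, 7.36 and 6.90 in dosed livers. The groups did not overlap, but the difference of 0.76 (SE 0.20) did not pass (adjusted p = 0.149). Of the 9 measured genes in the list of CYP1 enzymes and Ahr, Cyp1a1 alone was called and all 9 differences were positive (median 0.14).

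Cyp2a3, a P450 known mainly from nasal mucosa and lung, was spread widely in the vehicle group (4.71, 5.98, 5.86, 6.54 and 7.35) and tightly at 15 mg/kg (8.97, 8.53, 8.24, 8.35 and 8.42). The dosed arrays began 0.89 above the highest control, with a difference of 2.41 (SE 0.40, adjusted p = 0.0134). It was 2.53 without replicates 3 and 5 at 15 mg/kg, where the adjusted p was 0.0858. The call also ended in a fit of only the 2 groups compared. With all arrays high in muscle or pancreas genes left out it ended too (2.50, adjusted p = 0.278). Cyp2b21, 6 protein-coding genes away on chromosome 1, rose from 3.44 to 3.77 on the vehicle arrays to 3.89 to 4.12 (difference 0.46, SE 0.09, adjusted p = 0.0355). That is a small shift at the dim end of the scale, and its call ended without any 1 of 8 of the 10 arrays (0.42 to 0.47, adjusted p up to 0.106).

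Cyp3a23-3a1, the rat P450 most closely tied to the pregnane X receptor, had vehicle values of 13.42, 12.67, 12.67, 12.84 and 12.63. At 15 mg/kg the values were 13.48, 13.48, 13.52, 13.59 and 13.64. Vehicle replicate 1 came within 0.06 of the dosed arrays, while the other 4 controls were at 12.84 or below. The rise was 0.70 (SE 0.12, adjusted p = 0.0212), and 0.84 without vehicle replicate 1. Removal of vehicle replicate 3, 4 or 5 or of middle-dose replicate 4 or 5 ended its call (0.64 to 0.69, adjusted p up to 0.0827). The related Cyp3a2 was at 13.48 to 13.63 in controls and 13.60 to 13.86 at 15 mg/kg, with a difference of 0.15 (SE 0.06, adjusted p = 0.327).

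**Figure D3:**
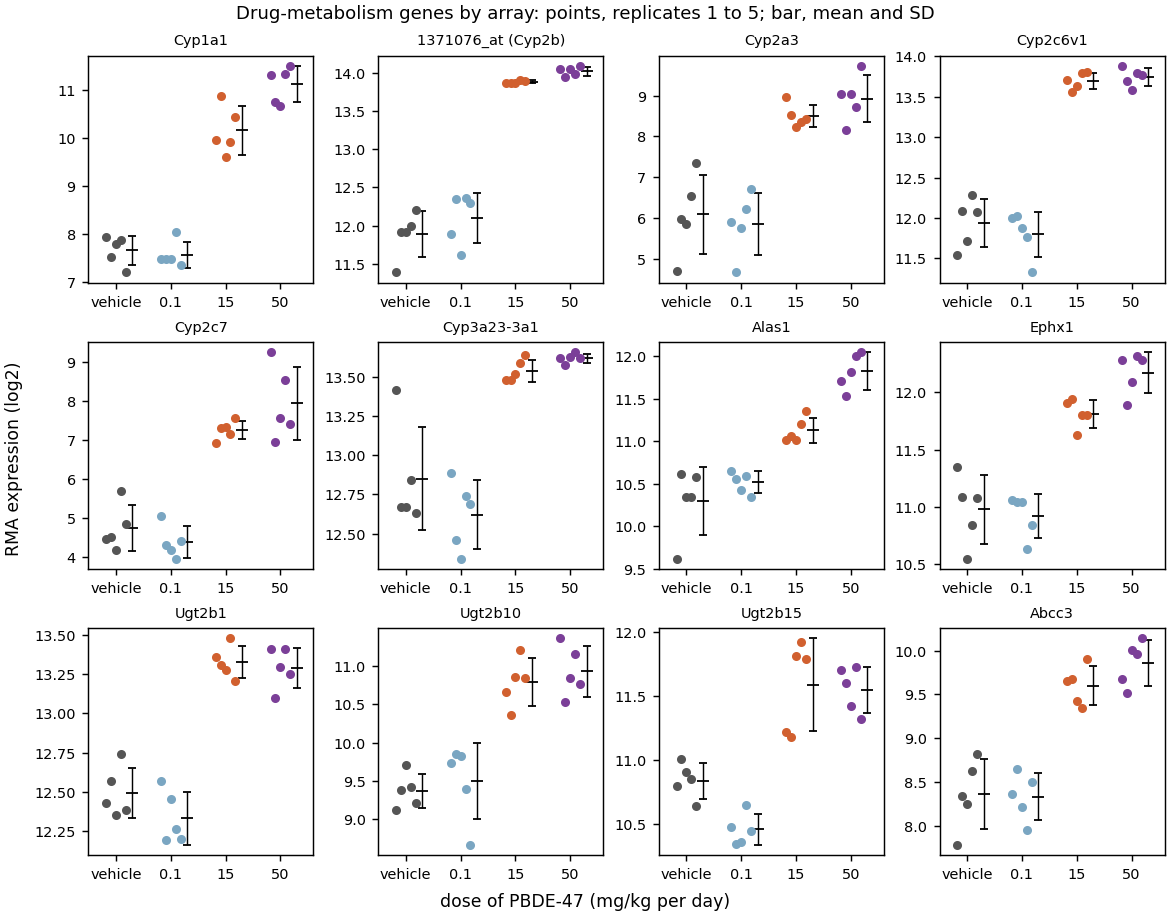
RMA expression (log2) of 12 called probe sets for drug metabolism on each array at the 4 doses; points are replicates 1 to 5, bars the mean and SD, and each panel has its own vertical axis, which does not start at 0. In every panel the 5 arrays at 15 mg/kg lie above the 5 vehicle arrays, by as little as 0.06 for Cyp3a23-3a1 and as much as 1.67 for Cyp1a1 and 1371076_at.

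Nuclear receptors of the CAR and PXR class bind pairs of a hexamer that varies around AGGTCA and AGTTCA. RefSeq promoters in the GRCr8 assembly, from 250 bases before to 50 bases after the annotated start, were listed for 21 of the 25 called genes. Cyp1a1, Cyp2c6v1, Abcc3 and Mmgt1 had no entry. The hexamer AGGTCA, on either strand, was in 7 of the 21 windows, against 16.2% of the 33469 promoters of that length. AGTTCA was in 3 of the 21, against 14.5%, and GCGTG, the core of the aryl hydrocarbon receptor's site, in 6, against 29.7%. The 250 bases before the start of the 5 called drug-metabolism genes that hold AGGTCA are shown 5' to 3' on the gene's strand, to let the spacing of the hexamers be seen; capitals mark AGGTCA or AGTTCA on either strand.
Cyp3a23-3a1, chr12:14398804-14399053, minus strand: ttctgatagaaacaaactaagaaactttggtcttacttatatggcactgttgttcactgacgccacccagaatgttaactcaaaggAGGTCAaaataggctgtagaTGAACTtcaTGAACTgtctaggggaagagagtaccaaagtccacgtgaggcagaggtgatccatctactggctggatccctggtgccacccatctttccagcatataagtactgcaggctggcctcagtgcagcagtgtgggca
Cyp2c7, chr1:247966144-247966393, plus strand: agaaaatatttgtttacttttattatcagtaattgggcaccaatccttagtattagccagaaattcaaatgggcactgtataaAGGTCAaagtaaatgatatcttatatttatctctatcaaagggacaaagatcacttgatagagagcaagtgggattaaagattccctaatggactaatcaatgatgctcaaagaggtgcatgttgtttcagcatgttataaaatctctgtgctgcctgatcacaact
Cyp2c11, chr1:246174966-246175215, plus strand: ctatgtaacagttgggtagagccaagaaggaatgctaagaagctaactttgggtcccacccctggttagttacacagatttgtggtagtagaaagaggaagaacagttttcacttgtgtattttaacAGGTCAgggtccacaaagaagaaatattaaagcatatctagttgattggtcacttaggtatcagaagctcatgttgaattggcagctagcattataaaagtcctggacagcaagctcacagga
Cyp2b21, chr1:91042753-91043002, minus strand: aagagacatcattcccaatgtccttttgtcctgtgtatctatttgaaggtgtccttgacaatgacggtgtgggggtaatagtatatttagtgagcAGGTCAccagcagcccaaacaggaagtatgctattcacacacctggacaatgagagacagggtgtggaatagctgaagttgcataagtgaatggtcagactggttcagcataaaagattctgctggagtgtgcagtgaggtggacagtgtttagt
Ugt2b15, chr14:21122616-21122865, plus strand: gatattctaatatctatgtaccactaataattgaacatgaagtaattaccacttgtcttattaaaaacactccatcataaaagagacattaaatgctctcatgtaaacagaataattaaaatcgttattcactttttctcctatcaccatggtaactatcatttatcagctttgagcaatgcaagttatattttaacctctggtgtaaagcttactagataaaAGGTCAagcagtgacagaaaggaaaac

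In the Cyp3a23-3a1 promoter the hexamers stand as a direct repeat spaced by 3 bases (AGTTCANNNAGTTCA) that reads on the opposite strand and begins at position -144 from the start. This arrangement is the textbook pregnane X receptor element of rat CYP3A promoters. It was found in 2 of the 33469 promoters (0.00598%), those of Cyp3a23-3a1 and Cyp3a2, whose values at 15 mg/kg are given above. The AGGTCA of Cyp2c7 lies at position -167, that of Cyp2c11 at -123, that of Cyp2b21 at -155 and that of Ugt2b15 at -27, each without a second hexamer of either kind in the window. A match is a run of letters and not a measured site, and elements farther upstream, such as the phenobarbital-responsive unit of Cyp2b genes, lie outside these windows.

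Heme is the cofactor of every P450, and Alas1 makes its first precursor. Alas1 read 9.62, 10.62, 10.34, 10.35 and 10.58 in the vehicle group and 11.01, 11.06, 11.02, 11.20 and 11.36 at 15 mg/kg. Dosed arrays were all above the controls, of which replicate 1 was the lowest, and the rise was 0.83 (SE 0.15, adjusted p = 0.0212), or 0.66 without that replicate. Removal of vehicle replicate 3 or 4 or of middle-dose replicate 4 or 5 ended the call (0.77 to 0.84, adjusted p up to 0.0827). Por, the reductase that passes electrons to P450s, was at 10.05, 8.95, 8.88, 9.06 and 8.99 in controls and 9.79, 9.88, 9.54, 9.98 and 9.55 in dosed livers. Vehicle replicate 1 was above all 5 dosed arrays and the other 4 controls below them, so the difference of 0.56 (SE 0.16) was not called (adjusted p = 0.201). Without vehicle replicate 1 it was 0.78, and called (adjusted p = 0.000443). The electron carrier Cyb5a differed by 0.20 (SE 0.05, adjusted p = 0.176). Of the 11 measured genes for heme synthesis and electron transfer, Alas1 was called and the median was -0.03.

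Hydrolysis and conjugation followed the same direction in part. Ephx1, the microsomal epoxide hydrolase that opens reactive epoxides made by P450s, was 11.35, 11.09, 10.55, 10.84 and 11.08 in controls. In the dosed group it was 11.91, 11.94, 11.63, 11.80 and 11.80, which puts its lowest array 0.28 above the highest control. It rose by 0.83 (SE 0.12, adjusted p = 0.00543). The call held with any 1 array left out but not in a fit of only the 2 groups compared. Nor did it hold with all arrays high in muscle or pancreas genes left out, where the difference was 0.92. The carboxylesterase gene Ces2c gave 5.97, 5.60, 5.55, 5.62 and 5.34 against 7.04, 6.07, 6.34, 6.89 and 7.26. Those groups did not overlap, and the difference of 1.10 (SE 0.26) was not called (adjusted p = 0.109). Of 7 measured carboxylesterase and epoxide hydrolase genes 1 was called and 6 were positive, with a median of 0.51.

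Glucuronosyltransferases attach glucuronic acid to steroids, bilirubin and drug metabolites. Ugt2b1 was 12.43, 12.57, 12.35, 12.74 and 12.38 in the vehicle group and 13.36, 13.31, 13.28, 13.48 and 13.21 at 15 mg/kg, a gap of 0.46 between groups. Its rise of 0.83 (SE 0.09) had an adjusted p of 0.000108. Ugt2b10, which stands next to it on chromosome 14 with 0 protein-coding genes between, was 9.13, 9.39, 9.71, 9.42 and 9.21 in controls and 10.66, 10.36, 10.86, 11.21 and 10.84 in dosed livers. It rose by 1.41 (SE 0.20, adjusted p = 0.00382), the most of the family, and by 1.37 without replicates 3 and 5 at 15 mg/kg (adjusted p = 0.071). Ugt2b15, which conjugates androgens and lies 6 protein-coding genes from Ugt2b1, was 10.80, 11.01, 10.91, 10.85 and 10.64 in the vehicle group. At 15 mg/kg it was 11.22, 11.18, 11.81, 11.92 and 11.79, so replicates 1 and 2 sat well below the other 3, but above all controls.

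The rise of Ugt2b15 was 0.74 (SE 0.13, adjusted p = 0.0212), and its call ended without any 1 of 7 of the 10 arrays (vehicle replicates 1, 3, 4 and 5, middle-dose replicates 3, 4 and 5; 0.66 to 0.76, adjusted p up to 0.0827). Ugt2b35 differed by 0.35 (SE 0.07) and Ugt2a1, an olfactory member, by 0.55 (SE 0.14), both with groups that did not overlap and neither called (adjusted p = 0.0623 and 0.128). In all, 3 of the 8 measured glucuronosyltransferase genes were called, 6 were positive and the median was 0.45. Cross-hybridisation among these similar genes was not tested.

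Glutathione transferases, which couple electrophiles to glutathione, had no call. Gsta3 was 10.85, 11.42, 10.89, 10.83 and 11.31 against 11.70, 11.61, 11.30, 11.72 and 11.67, and replicate 3 at 15 mg/kg fell inside the control range. The difference of 0.54 (SE 0.12) was not called (adjusted p = 0.0933), nor was that of Gstt2 (0.38, SE 0.09, adjusted p = 0.1). Of 19 measured family members 0 were called at 15 mg/kg in limma, 8 had an unadjusted p under 0.05 and 13 were positive, with a median of 0.21 and a range of -0.70 to 0.79. The 16 measured NRF2 and antioxidant targets had a median of 0.05 and 0 calls, with 2 at an unadjusted p under 0.05.

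Abcc3, the pump that returns glucuronides and bile acids from hepatocytes to blood, was 7.78, 8.34, 8.25, 8.62 and 8.82 in controls. It reached 9.65, 9.68, 9.42, 9.35 and 9.90 at 15 mg/kg, all above the controls. Its rise was 1.24 (SE 0.17, adjusted p = 0.00255), or 1.19 (adjusted p = 0.259) with all arrays high in muscle or pancreas genes left out. It was the only 1 of 18 measured uptake and efflux transporter genes called, and that list's median was -0.04. Receptor genes did not pass either. Nr1i3 differed by -0.22 (SE 0.14, adjusted p = 0.561) and Nr1i2 by 0.12 (SE 0.08, adjusted p = 0.565), and 0 of 17 measured nuclear receptor genes were called (2 at an unadjusted p under 0.05).

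Outside drug metabolism the clearest rise was that of Stbd1, which tethers glycogen to membranes. Stbd1 was 8.50, 8.70, 9.14, 9.07 and 8.97 in the vehicle group and 10.23, 9.74, 10.08, 10.04 and 10.05 at 15 mg/kg. No dosed array came within 0.61 of a control, and the rise was 1.16 (SE 0.13, adjusted p = 0.000184), or 2.23-fold. It was 1.09 (adjusted p = 0.123) with all arrays high in muscle or pancreas genes left out. The remaining 14 of the 15 measured genes of glucose and glycogen handling were not called, and the median of that list was -0.10.

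Meox2, a homeobox factor of mesoderm, was 5.03, 6.93, 5.76, 6.59 and 5.54 in controls and 7.27, 7.49, 7.92, 8.14 and 8.26 in dosed livers. Its controls varied more than the dosed arrays (SD 0.78 and 0.42), and the groups were 0.34 apart. The rise of 1.85 (SE 0.33, adjusted p = 0.0212) lost its call on removal of vehicle replicate 1, 3 or 5 or middle-dose replicate 3, 4 or 5 (1.61 to 1.82, adjusted p up to 0.0827). Tsku, a secreted protein of liver, was 7.57, 8.48, 8.78, 8.35 and 8.64 against 9.85, 9.29, 9.68, 9.24 and 9.42. It rose by 1.13 (SE 0.21, adjusted p = 0.0332), and by 0.93 without vehicle replicate 1, the lowest array (adjusted p = 0.0584). Its call also ended without vehicle replicate 4 or any 1 of middle-dose replicates 1, 3, 4 and 5 (1.04 to 1.20, adjusted p up to 0.098).

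Mmgt1, a subunit of the complex that inserts membrane proteins in the endoplasmic reticulum, had a pair of probe sets and both rose. The first, 1395325_s_at, was 9.44, 9.53, 9.73, 9.40 and 9.84 in controls and 10.44, 10.15, 10.20, 10.61 and 10.55 at 15 mg/kg, a difference of 0.80 (SE 0.13, adjusted p = 0.0126). The other, 1376168_at, rose by 0.73 (SE 0.12, adjusted p = 0.0136). On both, every dosed array was above every control. Calls ended without replicate 4 or 5 at 15 mg/kg for both probe sets and without vehicle replicate 4 for the second (0.67 to 0.76, adjusted p up to 0.0542).

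Smaller rises were called for 4 more named genes. Pecr, a peroxisomal enoyl-CoA reductase, went from a vehicle range of 11.49 to 11.91 to 11.95 to 12.16 (0.41, SE 0.08, adjusted p = 0.0338), with groups only 0.04 apart. Manba, the lysosomal beta-mannosidase, went from 8.58 to 8.88 up to 9.0 to 9.69 (0.59, SE 0.12, adjusted p = 0.0493). C8h11orf54 rose by 0.76 (SE 0.14, adjusted p = 0.0338) on probe set 1371763_at, but 1385359_at of the same gene differed by 0.10 (adjusted p = 0.723). Probe sets of the surface glycoprotein gene Cd99 also disagreed. On 1381867_at it rose by 0.41 (SE 0.07, adjusted p = 0.0124), while 1371918_at gave -0.14 (adjusted p = 0.54). The calls of Pecr, Manba and C8h11orf54 each ended without any 1 of 6 to 8 of the 10 arrays, with differences of 0.37 to 0.43, 0.49 to 0.63 and 0.67 to 0.74 in those fits (adjusted p up to 0.11, 0.144 and 0.106), and that of Cd99 without replicates 3 and 5 at 15 mg/kg together (0.44, adjusted p = 0.052). Cd99 also lost its call in a fit of only the 2 groups compared. With all arrays high in muscle or pancreas genes left out its call ended too (0.46, adjusted p = 0.229).

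Falls were fewer, and 1 of the 7 was at least 2-fold. No fall was called in a fit of only the 2 groups compared, nor without replicates 3 and 5 at 15 mg/kg. The phospholipase and acyltransferase gene Plaat3 was 10.90, 10.92, 10.68, 10.93 and 11.34 in the vehicle group and 10.29, 10.27, 10.26, 10.48 and 10.16 at 15 mg/kg. All dosed arrays were below the controls by at least 0.20, and the difference was -0.66 (SE 0.12, adjusted p = 0.0212). Slc25a22, a mitochondrial glutamate carrier, fell from 10.52 to 10.79 on the vehicle arrays to 10.03 to 10.27 (difference -0.45, SE 0.08, adjusted p = 0.0338). Selenok, a selenoprotein of the endoplasmic reticulum, fell from 10.45 to 10.63 down to 10.17 to 10.31 (difference -0.28, SE 0.05, adjusted p = 0.0362), the smallest called change. The call of Plaat3 ended without any 1 of 5 of the 10 arrays (vehicle replicates 4 and 5, middle-dose replicates 1, 3 and 5; -0.67 to -0.56, adjusted p up to 0.0827), and those of Slc25a22 and Selenok without any 1 but vehicle replicate 2 (-0.47 to -0.40 and -0.30 to -0.26, adjusted p up to 0.0961 and 0.118).

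Sf3b1, which recognises the branch point in the splicing machinery, was called lower on 1 of its 3 probe sets. On 1382691_at it was 6.70, 6.53, 6.31, 6.34 and 6.54 in controls and 5.90, 6.10, 5.90, 5.76 and 5.57 in dosed livers (difference -0.63, SE 0.10, adjusted p = 0.0136), without overlap. Leaving out middle-dose replicate 4 gave -0.61 (adjusted p = 0.0505) and leaving out replicate 5 gave -0.56 (adjusted p = 0.051), so the call was lost in both cases. The brighter probe sets 1389840_at and 1390234_at gave -0.29 (adjusted p = 0.375) and -0.12 (adjusted p = 0.559) with overlapping groups. None of 24 measured splicing factor genes was called on its brightest probe set, 2 had an unadjusted p under 0.05, and their median was -0.08.

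**Figure D4:**
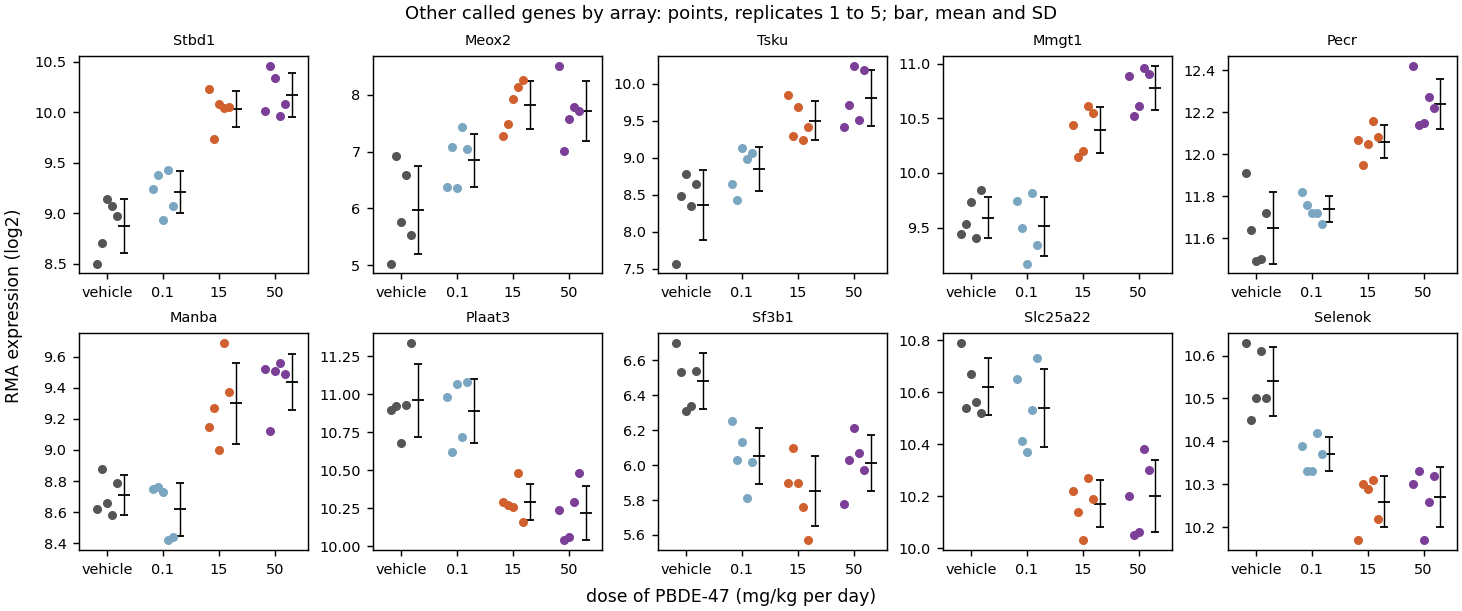
RMA expression (log2) of 10 further called genes on each array at the 4 doses; points are replicates 1 to 5, bars the mean and SD, and each panel has its own vertical axis, which does not start at 0. The first 6 genes, from Stbd1 to Manba, are higher at 15 mg/kg than in every vehicle array, and the last 4, from Plaat3 to Selenok, are lower.

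Among the called probe sets with no gene name here, the largest rise was that of 1380962_at, from 4.38 to 4.88 on the vehicle arrays to 5.97 to 7.34 (difference 1.73, SE 0.25, adjusted p = 0.00382). That call ended with all arrays high in muscle or pancreas genes left out (1.61, adjusted p = 0.0598). The largest fall was that of 1379497_at, from 5.67, 4.77, 5.47, 6.48 and 5.45 to 4.12, 4.37, 3.55, 3.64 and 3.91 (difference -1.65, SE 0.31, adjusted p = 0.0355), and it lost its call without any 1 of 8 of the 10 arrays (-1.70 to -1.42, adjusted p up to 0.105). Probe set 1381264_at fell by 0.71 (SE 0.12, adjusted p = 0.0189), and 1372890_at and 1368191_a_at rose by 0.65 and 0.61 (adjusted p = 0.0328 and 0.0493). Calls of these 3 ended without some single arrays, 3, 7 and all 10 of the 10 respectively (-0.69 to -0.63, 0.56 to 0.67 and 0.53 to 0.66, adjusted p up to 0.0558, 0.0962 and 0.122).

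Just past the threshold were Ddc, aromatic amino acid decarboxylase, and Pdk4, the kinase that restrains pyruvate oxidation. Ddc was 8.10, 8.81, 8.32, 8.28 and 8.99 in controls and 9.59, 9.06, 9.24, 9.72 and 9.57 at 15 mg/kg, with a gap of 0.07 and a difference of 0.93 (SE 0.19, adjusted p = 0.0583). Pdk4 differed by 0.55 (SE 0.12, adjusted p = 0.0823) without overlap. Nipal2 differed by 0.41, Chst5 by 0.38 and Fnip2 by 0.37 (adjusted p = 0.0583, 0.0576 and 0.0578). Nfkbiz, an inducible relative of IkappaB, gave opposite signs on its probe sets, 0.35 on the dim 1380798_at (adjusted p = 0.051) and -0.71 on 1378032_at (adjusted p = 0.205). Aldh1a1, which makes retinoic acid, was 9.26, 8.18, 8.60, 8.34 and 8.22 against 9.93, 8.85, 9.15, 9.60 and 9.92, where vehicle replicate 1 overlapped the dosed arrays (0.97, SE 0.23, adjusted p = 0.119).

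Genes of nitrogen disposal were lower in most cases, without a call. Ass1, the urea cycle enzyme argininosuccinate synthase, was 12.68, 11.67, 11.57, 11.99 and 11.69 in the vehicle group and 10.80, 11.48, 10.97, 10.73 and 11.22 at 15 mg/kg. The groups did not overlap, vehicle replicate 1 was the highest, and the difference was -0.88 (SE 0.19, adjusted p = 0.0957). Ornithine aminotransferase, Oat, gave 9.60, 8.80, 8.86, 9.32 and 9.12 against 8.16, 8.85, 8.47, 8.05 and 8.09, with replicate 2 at 15 mg/kg inside the control range (-0.82, SE 0.17, adjusted p = 0.0731). Of 12 measured urea cycle and ammonia genes 11 were negative (median -0.17) and 0 were called. In that list 5 had an unadjusted p under 0.05, beside 3769 of 31042 over all probe sets. The 12 periportal hepatocyte genes, some of them shared with that list, had a median of -0.23 and the 12 pericentral genes one of -0.10, both with 0 calls and with 7 and 4 at an unadjusted p under 0.05.

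Other lists held few calls. Over all probe sets the median was 0.01, and 3769 of 31042 had an unadjusted p under 0.05. Members for folding and stress in the endoplasmic reticulum were negative in 24 of 29 cases (median -0.16), 12 had an unadjusted p under 0.05, and Selenok alone was called. The chaperone gene Hyou1 differed by -0.45 (SE 0.11, adjusted p = 0.121). Cell cycle and replication genes were negative in 25 of 27 cases with a median of -0.19, and 2 had an unadjusted p under 0.05. Acute phase genes had a median of -0.10 (20 of 22 negative), and fatty acid oxidation and PPARA targets one of 0.08 (24 of 26 positive). None in these last 3 lists was called (unadjusted p under 0.05 in 2, 4 and 3). The acute phase list mean stood apart in vehicle replicate 4, at 12.19. On the other vehicle arrays it was 11.36 to 11.57, and at 15 mg/kg 11.27 to 11.72. Bile acid synthesis, lipogenesis, cholesterol synthesis, retinoid metabolism, the growth hormone axis and the circadian clock also had 0 calls, with medians between -0.09 and 0.10 and 0 to 3 members each at an unadjusted p under 0.05. Cyp7a1, the first enzyme of bile acid synthesis, differed by -0.31 (SE 0.23, adjusted p = 0.609).

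**Figure D5:**
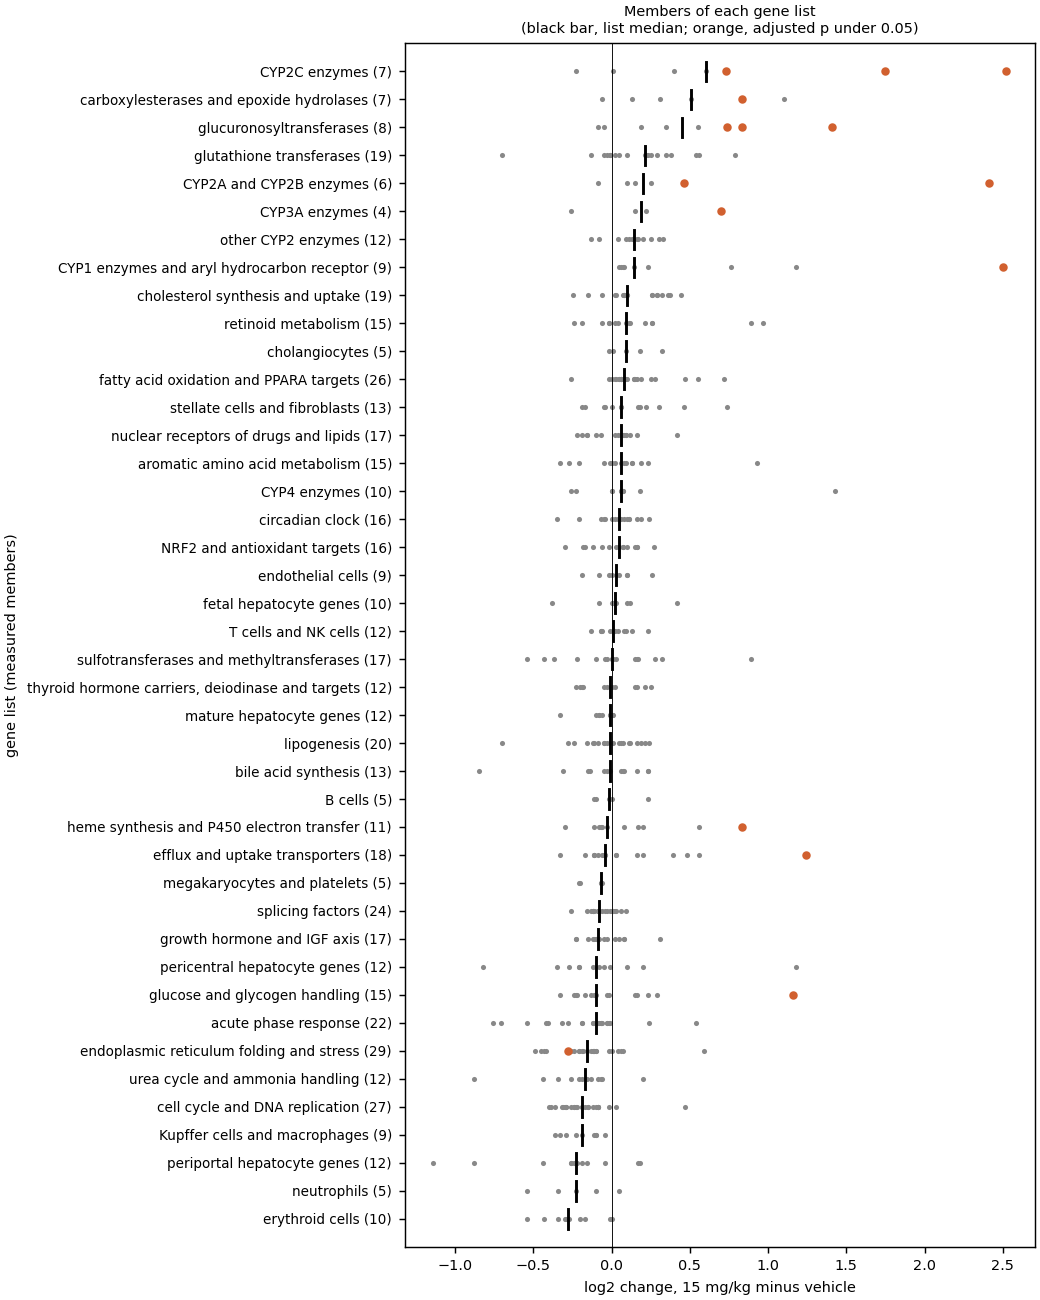
Difference between 15 mg/kg and vehicle (log2, horizontal axis) of each measured member of 42 gene lists, sorted by list median; the number of measured members is in brackets, the black bar is the median and orange points are called. The exocrine pancreas list (median 1.21) and the skeletal muscle list (0.17) are left out of the plot. Among the 42 shown, lists of drug-metabolizing enzymes stand at the top, led by the CYP2C enzymes (median 0.60), and erythroid cells at the bottom (-0.28).

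PBDE-47 is widely studied for thyroid effects, so carriers, deiodinase and targets of thyroid hormone were read as a list. Of 12 measured genes 0 were called and 1 had an unadjusted p under 0.05, and the median was -0.01. Serpina7, the thyroxine-binding globulin, was 12.27, 12.39, 12.19, 12.40 and 12.33 in controls and 12.05, 12.30, 11.94, 12.16 and 12.18 at 15 mg/kg (-0.19, SE 0.08, adjusted p = 0.381), with replicate 2 inside the control range. Dio1, which activates thyroxine, differed by -0.23 (95% interval -0.68 to 0.21, adjusted p = 0.689) and Thrsp, a thyroid hormone target, by 0.21 (95% interval -0.03 to 0.45, adjusted p = 0.465). The interval for transthyretin, Ttr, was -0.10 to 0.10.

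Markers of blood and immune cells had no call. All 10 measured erythroid genes were at or below 0 (median -0.28, 0 at an unadjusted p under 0.05), and their list mean ran from 9.47 to 10.18 on the vehicle arrays and from 8.48 to 10.53 at 15 mg/kg, so the dosed range enclosed the control range. The 9 measured Kupffer cell and macrophage genes were all negative (median -0.19, 3 at an unadjusted p under 0.05), led by the haemoglobin scavenger receptor Cd163 (-0.36, SE 0.10, adjusted p = 0.178) and the complement gene C1qb (-0.33, SE 0.10, adjusted p = 0.213). Neutrophil genes had a median of -0.23 (5 measured, 0 called). Their list mean was highest in vehicle replicate 4, at 10.72. On the other vehicle arrays it was 9.44 to 10.13, and at 15 mg/kg 9.14 to 10.07. Lists for T and NK cells, B cells, endothelial cells, stellate cells and cholangiocytes had medians between -0.02 and 0.09 and 0 calls. Some of these genes were dim. A mean under 5 was found for 10 of 12 measured T and NK cell genes, 2 of 5 B cell genes and 2 of 5 cholangiocyte genes. Fetal and mature hepatocyte genes had medians of 0.02 and -0.01. The part of these cell types in the called changes was not tested.

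Against the 0.1 mg/kg arrays, a reference group that holds no vehicle array, the same 5 arrays at 15 mg/kg differed in 28 probe sets (0.0902%), 27 higher (0.087%) and 1 lower (0.00322%). Cyp2c7 was 2.87 higher (SE 0.34, adjusted p = 0.000337), Cyp1a1 2.60 (SE 0.22, adjusted p = 1.67e-06), Cyp2c6v1 1.90 (SE 0.13, adjusted p = 1.79e-07) and 1371076_at 1.78 (SE 0.13, adjusted p = 4.12e-07). This comparison uses the same 5 arrays at 15 mg/kg as that with vehicle, so the counts that follow are a description. Of the 36 probe sets called against vehicle, 18 of the 29 rises and 0 of the 7 falls were called here. By gene, 12 of the 25 were not called, among them Alas1 (0.61, adjusted p = 0.222), Cyp2c11 (0.56, adjusted p = 0.174), Tsku (0.64, adjusted p = 0.628) and Meox2 (0.96, adjusted p = 0.67). The mean at 0.1 mg/kg lay between the vehicle and middle-dose means for 21 of the 36, namely 14 of the rises and 7 of the falls. Examples are Meox2 (5.97, 6.85 and 7.82 in that order), Tsku (8.36, 8.85 and 9.50) and Sf3b1 on 1382691_at (6.48, 6.05 and 5.85). The 36 were picked for their gap between vehicle and 15 mg/kg, into which the mean of another group can fall. How often it did so over all probe sets was not counted, so no graded response is read from this. Against vehicle, 0.1 mg/kg itself gave 0 calls in limma, with 2134 probe sets at an unadjusted p under 0.05 and a smallest adjusted p of 0.229.

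Por was called in that contrast, 0.88 higher at 15 than at 0.1 mg/kg (adjusted p = 0.0297), and so were Pdk4 (0.77, adjusted p = 0.00612) and Ugt2b35 (0.37, adjusted p = 0.0435). Named here after their values were seen, Dnajb3 was 1.45 higher (adjusted p = 0.00954, against 0.133 in the comparison with vehicle) and Pir 0.85 higher (adjusted p = 0.0163, against 0.197). The 1 lower probe set was that of Wtap, a subunit of the RNA adenosine methylation complex (-0.42, adjusted p = 0.0191), which differed from vehicle by -0.15 (adjusted p = 0.435). With the arrays high in muscle or pancreas genes left out, which left 1 array at 0.1 mg/kg, 1 probe set was called; the lone array was assumed to vary like the other groups.

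Between 50 and 15 mg/kg, 0 probe sets were called in limma, with 1749 at an unadjusted p under 0.05 and a smallest adjusted p of 0.525. That p belonged to Alas1, whose mean was 11.13 at 15 and 11.83 at 50 mg/kg (difference 0.69, 95% interval 0.39 to 1.00). Cyp1a1 was at 10.17 and 11.13 (difference 0.96, 95% interval 0.50 to 1.41, adjusted p = 0.655), with dosed ranges of 9.61 to 10.89 and 10.68 to 11.51 that overlapped. Intervals that held 0 were narrow for 1371076_at (difference 0.15, -0.13 to 0.43), Cyp2c6v1 (0.05, -0.23 to 0.32) and Ugt2b1 (-0.03, -0.22 to 0.16). They were wide for Cyp2c7 (0.69, -0.03 to 1.41), whose arrays at 50 mg/kg ran from 6.94 to 9.26, and for Cyp2a3 (0.43, -0.40 to 1.25). At 15 mg/kg 1371076_at, Cyp2c6v1 and Ugt2b1 already had means of 13.88, 13.69 and 13.33, toward the table's highest value of 14.82. Differences are compressed at that end, and whether this hid a further rise was not tested. Against the same vehicle arrays, 50 mg/kg gave 290 calls (0.934%), and the counts of both doses rest on shared controls.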

How the data were processed

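Liver RNA from 4 groups of 5 was measured on Affymetrix Rat230_2 arrays. The table deposited by the authors holds log2 values from RMA, per the submitters' processing notes, a method that subtracts background, equalizes array distributions and fits probes by median polish. Its version is not given in the sources used here. Differences are compressed at both ends of its scale, and the number of arrays limits the precision.

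Groups and replicate numbers came from the sample titles. Hybridisation controls (57 probe sets) were dropped, leaving 31042 tested without a filter. The platform annotation gives 20826 of them 1 symbol, 436 several and 9780 none here. Probe sets with 1 symbol stand for 14217 genes. Of these 20826 probe sets, 20758 were matched by gene ID to RefSeq (GRCr8), with 0 symbols updated.

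Group means were fitted to all 20 arrays by lmFit and eBayes of limma 3.58.1 (R 4.3.3), with a threshold of 0.05 on the false discovery rate as in the study, whose own tool, R/maanova, was not run here. All adjusted p-values are from limma with Benjamini-Hochberg adjustment over all probe sets of a contrast. Tests are two-sided, with 95% intervals. The code was tested on simulated data.

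Genes named are all called ones with 1 symbol, up to 6 called probe sets without, called members and up to 2 more per list, a set of index genes, the 6 uncalled with the smallest p, and further probe sets of named genes. In lists a gene stands by its brightest single-symbol probe set. Members, lists and rules were chosen with earlier results of these data known. The result for 1 uncalled microRNA host symbol is left out, because a 3' array does not measure the mature form.

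Alternatives were blocks for the replicate number or the leading description digit, a fit of only 2 groups, another normalization, filters at a mean of 5 or 6, other shrinkage, array weights, 1 probe set per gene, wider adjustment, muscle and pancreas covariates, leaving out arrays over 2 log2 units above the lowest in those lists, and each array left out. Promoter sequences are RefSeq's (GRCr8). Plots used Python 3.11.15 and matplotlib 3.10.9.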

Additional observations from a re-analysis of the deposited data

Results flagged for a closer look

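Among 160 groups of 5 arrays (80 named probe sets, vehicle and 15 mg/kg), 12 held an array far from its 4 neighbours by Dixon's 95% criterion, and chance gives about 1 in 20. Of these 12, 6 were vehicle replicate 1. That array was low at 4.38 for 1380962_at (next 4.76), 9.62 for Alas1 (next 10.34) and 8.74 for 1368191_a_at (next 9.10). It was high at 13.42 for Cyp3a23-3a1 (next 12.84), 10.05 for the P450 reductase Por (next 9.06) and 6.05 for the desaturase Scd (next 4.75). Vehicle replicate 2 was low for Pdk4 at 8.64 (next 9.08).

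At 15 mg/kg, replicate 3 was low for Gsta3 at 11.30 (next 11.61) and high for C1qb at 10.25 (next 10.05). Replicate 5 was high for 1372890_at at 10.57 (next 10.17) and for the ubiquitin ligase gene Syvn1 at 9.0 (next 8.85). Replicate 4 was high for Sf3b1 on 1390234_at at 11.07 (next 10.91).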

How the results depend on the processing

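Calls against vehicle numbered 36, and between 28 and 49 under a replicate block (36), a block for the description number's leading digit (28), a repeat of quantile normalization, centring on equal medians, a minimum mean of 5 or of 6, shrinkage left out or made robust with a trend, weights for arrays, a single probe set for each gene, or adjustment over the 3 dose contrasts. They fell to 11 in a fit of only the 2 groups compared, 16 with muscle and pancreas covariates, 7 without the arrays that carried those transcripts and 10 without the 2 such arrays at 15 mg/kg; with 1 array left out they ran from 14 to 44. Against 0.1 mg/kg the count of 28 became 1 without those arrays and was otherwise between 19 and 32; between 50 and 15 mg/kg it was 0 throughout. Sizes of the 32 called probe sets followed kept their sign in every fit, and 4 of these kept their call in every fit. Fewer arrays leave fewer degrees of freedom; any other cause was not tested.

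Same-numbered arrays of both groups did not deviate together (correlations 0.04, -0.30, -0.13, 0.01 and 0.21). Only replicate 5 correlated best with its own number. The highest correlation, 0.52, joined middle-dose replicate 3 with vehicle replicate 2, both high in skeletal muscle genes. Such transcripts can enter these correlations, so they cannot decide whether the numbers pair the samples. Under the replicate block 28 of the 32 called probe sets followed kept their call. Signs near 0 turned for Ttr (0.00 under the digit block and with equal medians, 0.02 with quantile normalization, 0.01 with array weights, -0.03 to 0.02 with 1 array left out), Alb (0.00 with quantile normalization, -0.02 to 0.01), Nqo1 (-0.01 with array weights, -0.05 to 0.20), Afp (0.00 to 0.03) and the C8h11orf54 probe set 1385359_at (-0.00 without the 2 pancreas arrays). The cause was not tested.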
